A study of Mus musculus with 123 samples.

Results

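The genes described here are 9 complement components and receptors, C1qa, C1qb, C1qc, C3, C4b, Cfb, Serping1, C3ar1 and C5ar1, of which 7 were measured among the 13053 genes tested. A gene counted as measured where the platform annotation gave its symbol alone to a probe set, and a gene with several such probe sets was represented by the brightest on average. C3 and C4b were not analysed here. Whole lungs were profiled in a mouse model of allergic asthma, with 1 Affymetrix array for each BALB/c mouse. In the naive arm 61 mice, not sensitized, and in the other arm 62 mice sensitized to the egg white protein ovalbumin (OVA) were sampled at 0, 2, 6, 24, 48, 72, 96 and 168 h. Groups held 8 mice, except for 7 naive mice at 2, 48 and 96 h and 6 sensitized mice at 24 h. The design text has both arms challenged with OVA, whereas sample titles of the naive arm contain PBS, so which challenge the naive mice received is not settled by the sources used here. Neither the age of the mice nor whether 0 h precedes a challenge is given in them. The comparison asks how the lungs of the arms differed at each time.

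Complement is a cascade of plasma and tissue proteins that tags particles for uptake, recruits leukocytes and can lyse cells. The classical pathway starts when C1q, a hexamer of triplets of A, B and C chains, binds antibody on antigen or altered cell surfaces, and the C1 inhibitor encoded by Serping1 holds the proteases attached to C1q in check. Factor B, encoded by Cfb, supplies the protease of the alternative pathway convertase that amplifies C3 cleavage. The fragments C3a and C5a act through C3ar1 and C5ar1, G protein-coupled receptors of myeloid cells, and macrophages are the main source of C1q in most tissues, whereas the liver makes much of the plasma complement. Both receptors have been studied in allergic airway disease.

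Values are log2 probe set signals, so a difference of 1 doubles the signal, and a gene was called where the adjusted p of limma was below 0.05. Of the 10 lung markers, the club cell protein Scgb1a1 had the highest median over all arrays, at 14.59, and the ciliated cell factor Foxj1 the lowest, at 8.92. Foxj1 lay below the medians of whole arrays, which ran from 9.32 to 9.44, and the next lowest marker, Hopx of alveolar type 1 cells, stood at 13.2. RNA quality was gauged by how much brighter the 3′ end of actin was than its 5′ end, a log2 difference that ranged from 0.80 to 1.71. Its medians were 1.24 in naive and 1.06 in sensitized mice at 6 h and 1.22 and 1.53 at 168 h. The measure also varied over time within an arm, with medians of 1.396 at 0 h and 1.085 at 96 h in naive mice. In sensitized mice its medians were 1.405 at 0 h and 0.964 at 24 h. In 10 arrays the mean of a squamous epithelium or skeletal muscle list lay more than 1 above its median over arrays. Naive replicate 4 at 168 h, naive replicate 3 at 72 h, sensitized replicate 3 at 6 h and sensitized replicate 1 at 48 h stood apart from their groups in several of the complement genes. Values without them are given beside some of the results. Sensitized replicate 3 at 6 h was also among those 10 arrays, with a skeletal muscle list mean of 9.41. In whole lung, fewer cells of a type and less RNA per cell cannot be told apart.

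The C1q chain genes neighbour each other on chromosome 4, and promoters are shown for C1qb, C1qc and C3ar1, which correlated at r = 0.757 to 0.915 among mice of the same group. Of the 7 measured genes, 4 had an entry in the RefSeq promoter table (GRCm38.p6), and these 3 windows hold the bases before each annotated gene start, on the minus strand, at chr4:136886201-136886450, chr4:136892937-136893164 and chr6:122856158-122856407. The entry of C5ar1 held only 48 bases before the gene start and is not shown, and C1qa had no entry. Capitals mark a match to GAGGAA, the core of the site of the myeloid factor PU.1, in C1qb and, as TTCCTC on the other strand, in C1qc, and to TGACTCA, the AP-1 site, in C3ar1.
C1qb: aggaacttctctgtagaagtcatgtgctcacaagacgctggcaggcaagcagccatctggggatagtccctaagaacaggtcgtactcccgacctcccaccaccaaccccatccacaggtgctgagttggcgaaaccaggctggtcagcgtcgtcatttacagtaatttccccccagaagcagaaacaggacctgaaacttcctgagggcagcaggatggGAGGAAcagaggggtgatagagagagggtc
C1qc: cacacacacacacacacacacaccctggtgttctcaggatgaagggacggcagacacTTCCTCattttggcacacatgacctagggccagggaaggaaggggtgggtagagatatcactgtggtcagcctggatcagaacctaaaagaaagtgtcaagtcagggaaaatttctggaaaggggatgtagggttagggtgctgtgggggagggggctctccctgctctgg
C3ar1: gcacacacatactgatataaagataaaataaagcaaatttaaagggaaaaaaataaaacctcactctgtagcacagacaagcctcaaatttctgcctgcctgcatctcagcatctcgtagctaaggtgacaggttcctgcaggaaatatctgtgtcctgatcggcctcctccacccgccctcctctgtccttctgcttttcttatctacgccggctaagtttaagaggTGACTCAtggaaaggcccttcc
The GAGGAA match began 30 bases before the start of C1qb and 171 bases before that of C1qc. The TGACTCA match began 22 bases before that of C3ar1. Both strands were searched for these motifs and for TTCNNNGAA, the STAT site, and the interferon response element, neither of which was found in the 3 windows. Of 32851 RefSeq promoter windows, GAGGAA was found in 23.25% at a length of 250 bases and in 21.17% at 228 bases, and TGACTCA in 4.46% at 250 bases.

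Over the time course the C1q chains, Cfb and C3ar1 stood higher in sensitized than in naive lungs, Serping1 stood slightly lower, and C5ar1 was the gene whose difference changed sign. At 0 h 4 of the 7 genes were called higher and 2 lower, where 14.2% of all genes were called higher and 12.3% lower. At 2 h limma called none of the 7 (1.84% of all genes higher and 1.92% lower), although C1qa, C1qc, C3ar1 and C5ar1 had an unadjusted p below 0.05. At 6 h 5 were called higher and 1 lower (24.6% and 33.2% of all genes), and at 24 h the same numbers (22.8% and 24.9%). All 7 were called at 48, 72 and 96 h, 5 higher and 2 lower. At those times 17%, 22.2% and 21.2% of all genes were called higher and 18.1%, 26.3% and 20.8% lower. At 168 h C1qb was called higher and Serping1 and C5ar1 lower, where 3.40% and 1.41% of all genes were called. The median difference of the 7 genes was highest at 24 h, at 1.30, where that of all genes was -0.02.

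**Figure D1:**
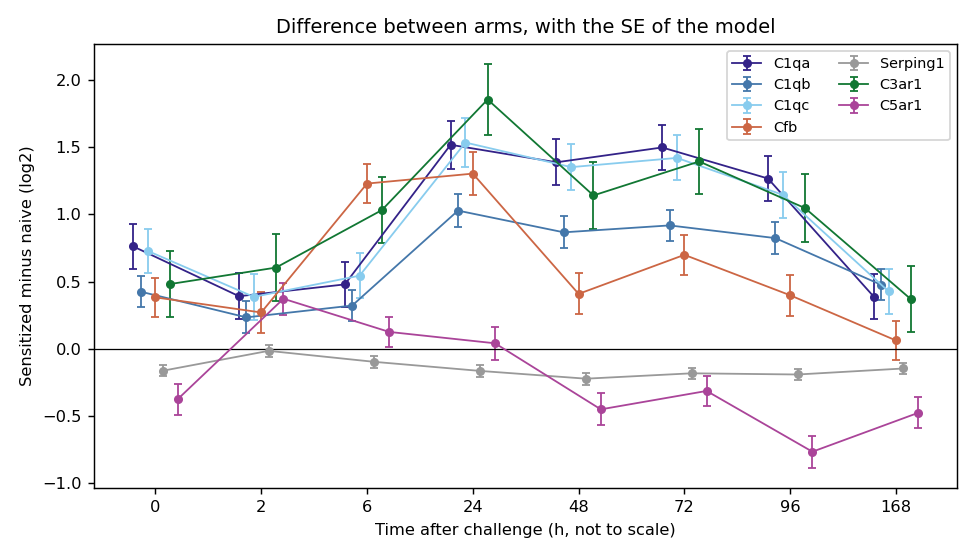
Difference between the arms, sensitized minus naive on the log2 scale, for the 7 measured complement genes at the 8 times, with the SE of the model as bars. C3ar1 reached 1.85 at 24 h, the C1q chains stayed between 0.82 and 1.53 from 24 to 96 h, Cfb stood at 1.23 and 1.30 at 6 and 24 h, Serping1 stayed between -0.22 and -0.01, and C5ar1 ran from -0.37 at 0 h to 0.37 at 2 h and -0.76 at 96 h.

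All C1q chains, the recognition subunits of the classical pathway, stood higher in sensitized than in naive mice, with the largest differences from 24 to 96 h. At 24 h C1qa stood at 10.25, 10.60 and 11.10 (lowest, median and highest) in naive and at 11.77, 12.10 and 12.44 in sensitized mice. The groups did not overlap, and the difference was 1.52 ± 0.18 (SE; 8 naive and 6 sensitized mice), a 2.86-fold higher signal (adjusted p = 6.80e-12). C1qc stood at 10.33, 10.57 and 11.18 in naive and at 11.89, 12.16 and 12.42 in sensitized mice at 24 h. C1qb stood at 12.27, 12.50 and 12.88 in naive and at 13.45, 13.56 and 13.68 in sensitized mice. Both chains also separated the groups at 24 h, with differences of 1.53 ± 0.18 for C1qc and 1.03 ± 0.12 for C1qb. Every sensitized mouse stood above every naive mouse for all 3 chains at 24, 48 and 96 h, which held for 13%, 5.98% and 6.13% of all genes. At 72 h this was so for C1qa alone among the chains (6.92% of all genes), because naive replicate 3 stood at 13.50 for C1qb and 11.80 for C1qc. For C1qa that mouse stood at 11.516, barely below the lowest sensitized mouse at 11.5205.

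**Figure D2:**
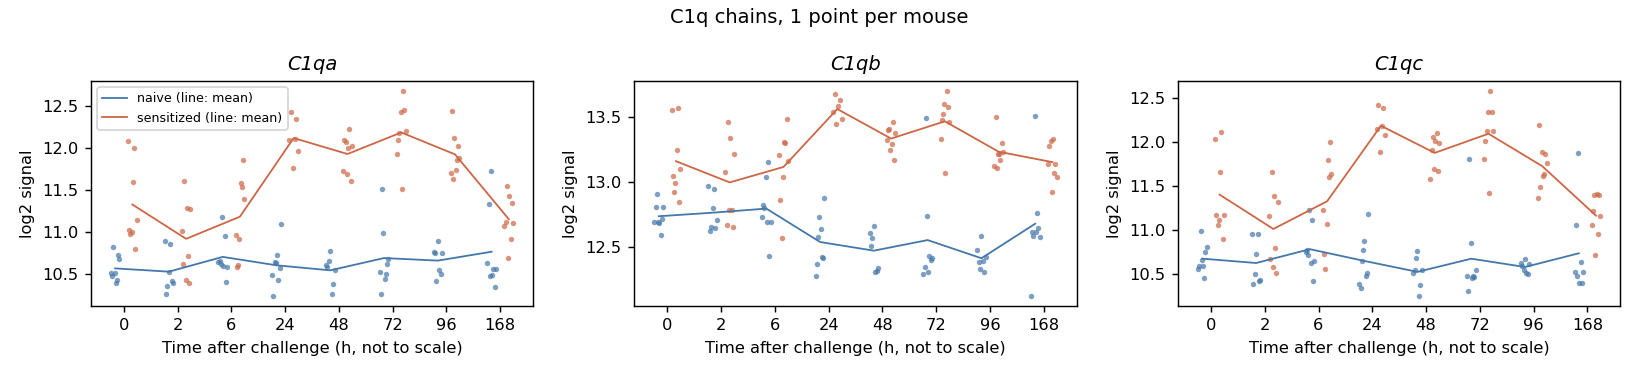
Log2 signal of C1qa, C1qb and C1qc in each mouse (points) and group mean (lines) by time after challenge, which is not drawn to scale, for naive and sensitized mice. Sensitized points lie above all naive points at 24, 48 and 96 h, and single naive mice at 72 and 168 h lie between 11.52 and 11.87 for C1qa and C1qc, above the rest of their groups.

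The difference in C1q was already called at 0 h, and its estimates were smaller at 2 h. At 0 h C1qa stood at 10.39, 10.51 and 10.82 in naive and at 10.80, 11.09 and 12.09 in sensitized mice. The groups overlapped by 1 sensitized mouse for each chain, and the differences were 0.76 ± 0.16 for C1qa, 0.73 ± 0.17 for C1qc and 0.43 ± 0.11 for C1qb (adjusted p = 0.000313, 0.000677 and 0.00363). At 2 h the differences were 0.39 ± 0.17 for C1qa, 0.39 ± 0.17 for C1qc and 0.23 ± 0.12 for C1qb, and 4 of 8 sensitized mice lay above every naive mouse for each chain. C1qa fell by 0.41 ± 0.16 from 0 to 2 h within the sensitized arm (adjusted p = 0.0462), a step in which 32.2% of all genes were called. C1qc changed by -0.39 ± 0.17 and C1qb by -0.16 ± 0.11 in that step, neither called (adjusted p = 0.0623 and 0.277). The change of the difference between the arms from 0 to 2 h was called for no chain (adjusted p = 0.351 to 0.509). At 6 h C1qa stood at 10.59, 11.18 and 11.87 in sensitized mice, against 10.41, 10.64 and 11.18 in naive mice, and all 3 chains were called, at 0.48 ± 0.16, 0.32 ± 0.11 and 0.54 ± 0.17 for C1qa, C1qb and C1qc. The groups overlapped, and sensitized replicate 3 was the lowest sensitized mouse for C1qb and C1qc. Without it the differences were 0.56, 0.40 and 0.65.

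The step from 6 to 24 h carried the largest rise of the chains between neighbouring times. C1qa rose by 0.94 ± 0.18, C1qc by 0.86 ± 0.18 and C1qb by 0.45 ± 0.12 within the sensitized arm, where 31.4% of all genes were called in this step. Compared with the difference at 0 h, that at 24 h was larger by 0.76 ± 0.24 for C1qa, 0.81 ± 0.25 for C1qc and 0.60 ± 0.17 for C1qb (adjusted p = 0.0464, 0.0364 and 0.0226), where 3.39% of all genes had a larger difference by this test. No such change was called for the chains at another time without array weights, and the contrasts share the mice of 0 h. With array weights it was also called for all 3 chains at 48, 72 and 96 h, between 0.46 and 0.97 (adjusted p = 5.14e-06 to 0.0391). Within the sensitized arm C1qa stood above 0 h by 0.79, 0.60, 0.86 and 0.60 at 24, 48, 72 and 96 h, each called, where 18%, 1.47%, 12.6% and 8.73% of all genes were called higher. C1qb and C1qc were called above 0 h at 24 h (0.40 and 0.78) and 72 h (0.31 and 0.69). At 48 and 96 h neither was called, with C1qb at 0.17 and 0.07 and C1qc at 0.47 and 0.32 (adjusted p = 0.0893 to 0.703). Sensitized C1qa had its highest mean at 72 h, at 12.19 ± 0.36 (SD, n = 8), followed by 12.12 at 24 h, 11.93 at 48 h and 11.93 at 96 h. Next came 11.33 at 0 h, 11.19 at 6 h, 11.16 at 168 h and 10.92 at 2 h, and the step between 96 and 0 h was the only one in this order that exceeded the larger SD of the neighbouring groups. For C1qb and C1qc no step in the same kind of order exceeded it.

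By 168 h the differences of the chains were smaller, and no test compared the chains with each other. C1qa fell by 0.77 ± 0.16 and C1qc by 0.56 ± 0.17 from 96 to 168 h in sensitized mice (33.6% of all genes called), whereas C1qb differed by -0.08 ± 0.11 and was not called. C1qb stood at 12.12, 12.62 and 13.51 in naive and at 12.92, 13.14 and 13.33 in sensitized mice at 168 h. The highest value belonged to naive replicate 4, which lay above all 8 sensitized mice, and the other 7 naive mice reached 12.76 at most. C1qb was called at 168 h (0.48 ± 0.11, adjusted p = 0.00467), whereas C1qa and C1qc, at 0.39 ± 0.16 and 0.43 ± 0.17, were not (adjusted p = 0.161 and 0.121). Without naive replicate 4 the differences were 0.53 for C1qa and 0.59 for C1qc, and both were called (adjusted p = 0.0388 and 0.0170), as they were with array weights (0.65 and 0.66, adjusted p = 6.78e-05 and 2.94e-05). Without that mouse the difference in C1qb was 0.59 and still called. Without naive replicate 3 the differences at 72 h were 1.61, 1.05 and 1.58 for C1qa, C1qb and C1qc, against 1.50, 0.92 and 1.42 with it.

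In naive mice the C1q levels moved little. Group means of C1qa lay between 10.53 and 10.77 and those of C1qc between 10.52 and 10.78 over the 8 times, and neither changed by the moderated F test over the 7 changes since 0 h. C1qb changed by that test (adjusted p = 0.0234, where 38.4% of all genes were called), with a mean of 12.41 ± 0.09 (SD, n = 7) at 96 h against 12.74 ± 0.10 (SD, n = 8) at 0 h. That change, at -0.33 (adjusted p = 0.0434), was the only one of the 7 genes called at any single time in naive mice, and 17.3% of all genes were called at 96 h. The actin measure of RNA quality had a naive median of 1.396 at 0 h and 1.085 at 96 h, and its part in this change was not tested.

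C1qb and the receptors were each read by more than 1 probe set, which gave differences of unequal size. The C1qb probe set used here carries the suffix _x_at, which marks probes shared with other transcripts, and it correlated with the gene's other 2 probe sets at r = 0.997 and 0.971 over all arrays. Its dimmest probe set, with a mean signal of 10.52 against 12.93 for the one used, gave 1.66 ± 0.21 at 24 h where the one used gave 1.03. The call at 168 h was lost with that probe set (0.57 ± 0.19, adjusted p = 0.0713), and also with the arrays of 168 h fitted alone (adjusted p = 0.0709).

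**Figure D3:**
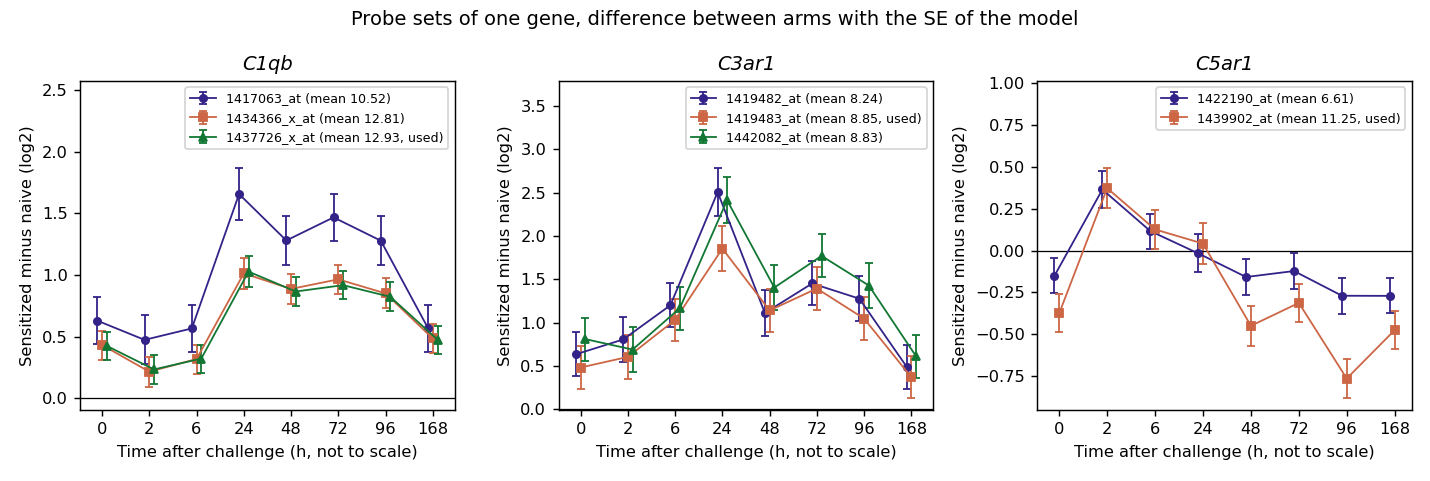
Difference between the arms on the log2 scale, with the SE of the model, for each probe set of C1qb, C3ar1 and C5ar1 at the 8 times. The legend gives each probe set's mean signal. The C1qb probe set with a mean of 10.52 reached 1.66 and the C3ar1 probe set with a mean of 8.24 reached 2.50 at 24 h, above the ones used at 1.03 and 1.85, and the C5ar1 probe set with a mean of 6.61 stayed between -0.27 and 0.36.

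Cfb, the alternative pathway protease, showed a short peak at 6 and 24 h. At 6 h Cfb stood at 10.06, 10.26 and 10.81 in naive and at 10.53, 11.78 and 12.15 in sensitized mice. Of the 8 sensitized mice, 6 stood above every naive mouse, and sensitized replicate 3 was the lowest at 10.53. At 24 h the groups did not overlap, at 9.89, 10.23 and 10.78 in naive and 11.23, 11.66 and 11.77 in sensitized mice. The difference was 1.23 ± 0.15 at 6 h, a 2.34-fold higher signal (adjusted p = 8.57e-12), and 1.30 ± 0.16 at 24 h (adjusted p = 2.58e-11). Leaving out any 1 mouse gave 1.14 to 1.37 at 6 h, the highest without sensitized replicate 3.

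The rise and the fall of Cfb each took place within 1 step of the sampling. In sensitized mice Cfb rose by 0.89 ± 0.15 from 2 to 6 h (adjusted p = 2.16e-07, where 50.9% of all genes were called) and fell by 0.89 ± 0.16 from 24 to 48 h (adjusted p = 2.28e-05, where 25.3% were called). Compared with 0 h, the difference between the arms was larger by 0.85 ± 0.21 at 6 h and by 0.92 ± 0.22 at 24 h (adjusted p = 0.00141 and 0.00597), where 10% and 3.39% of all genes were called in this direction. C5ar1 was the other gene whose difference at 6 h was called as changed since 0 h, and with array weights C3ar1 was called as well. With array weights the change in Cfb was called at 72 h too (0.51, adjusted p = 0.00903). From 48 to 96 h the difference in Cfb lay between 0.40 and 0.70 and was called each time (0.48 at 48 h without sensitized replicate 1), and at 72 h every sensitized mouse stood above every naive mouse. At 168 h Cfb stood at 10.01, 10.17 and 10.61 in naive and at 9.96, 10.37 and 10.52 in sensitized mice, with a difference of 0.06 ± 0.15. Ordered by mean, sensitized Cfb was highest at 24 h (11.60) and 6 h (11.54), and the gap to the next, 10.93 at 72 h, was the only one above the larger SD of the neighbouring groups.

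At 0 h the call of Cfb rested on few mice. Cfb stood at 10.12, 10.35 and 10.55 in naive and at 10.18, 10.61 and 11.52 in sensitized mice, of which 4 lay above every naive mouse. The difference of 0.38 ± 0.15 was called (adjusted p = 0.0419), but leaving out any of sensitized replicates 1, 5, 6 and 8 or naive replicates 2, 3, 4 and 6 ended the call, with adjusted p between 0.0588 and 0.197. With the arrays of 0 h alone it was not called (adjusted p = 0.0988), and with array weights it was 0.18 (adjusted p = 0.198). The two-sided exact permutation test gave an unadjusted p of 0.0528 at 0 h.

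Interferon-stimulated genes and Cfb were both high at 6 and 24 h. All 7 measured genes of the interferon-stimulated list were called higher at 6 h, and 6 of 7 at 24 h, where 24.6% and 22.8% of all genes were called higher. Their mean per mouse ranged from 9.09 to 9.69 in naive and from 9.33 to 12.84 in sensitized mice at 6 h. At 2 h, where Cfb was not called, 3 of the 7 were called higher (1.84% of all genes). Cfb was called at 0, 48, 72 and 96 h, where 3, 2, 5 and 1 were called higher (14.2%, 17%, 22.2% and 21.2% of all genes). The part of this list in the Cfb result was not tested.

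Serping1, the inhibitor of the C1 proteases, was lower in sensitized mice by a small amount that few mice departed from. At 0 h Serping1 stood at 13.32, 13.39 and 13.43 in naive and at 13.08, 13.24 and 13.36 in sensitized mice, 7 of which lay below every naive mouse. At 96 h it stood at 13.38, 13.44 and 13.49 in naive and at 13.13, 13.25 and 13.37 in sensitized mice. The groups did not overlap at 24, 48 and 96 h, with every sensitized mouse below every naive mouse, as was so for 9.11%, 4.04% and 5.06% of all genes. The differences were -0.16 ± 0.04 at 0 h, -0.16 ± 0.05 at 24 h, -0.22 ± 0.04 at 48 h, -0.18 ± 0.04 at 72 h and -0.19 ± 0.04 at 96 h, each called, with a signal 1.17-fold lower at 48 h. At 48 h sensitized replicate 1 was the lowest of all mice at 12.75, and without it the difference was -0.16 and still called (adjusted p = 0.000834).

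At 2 h Serping1 stood in sensitized mice where it stood in naive mice. Its values were 13.33, 13.37 and 13.44 in naive and 13.15, 13.38 and 13.48 in sensitized mice, with a difference of -0.01 ± 0.04, which turned to 0.02 without sensitized replicate 8, the lowest mouse. Within the sensitized arm Serping1 rose by 0.15 ± 0.04 from 0 to 2 h (adjusted p = 0.00499). The change of the difference since 0 h was called at 2 h with array weights (0.16, adjusted p = 0.00618). Without weights it was not called at any time, and neither was the interaction over all times (adjusted p = 0.0611), which was called for the other 6 genes and for 62.5% of all genes. Naive group means lay between 13.38 and 13.44, and sensitized group means between 13.20 and 13.37, with no neighbouring pair further apart than the larger SD of its groups.

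The calls of Serping1 at 6 and 168 h lay near the threshold. At 6 h the difference was -0.10 ± 0.04 (adjusted p = 0.0429), and it was not called when any 1 of 12 of the 16 mice was left out (adjusted p up to 0.0878), namely naive replicates 1, 2, 5, 6, 7 and 8 and sensitized replicates 1, 4, 5, 6, 7 and 8. It was also not called without the arrays with high squamous or muscle values (adjusted p = 0.0951). The two-sided exact permutation test at 6 h gave an unadjusted p of 0.00357. At 168 h the difference was -0.15 ± 0.04 (adjusted p = 0.0247), and leaving out naive replicate 4 or sensitized replicate 1, 3 or 4 ended the call (-0.12 to -0.13, adjusted p up to 0.0839), as did fitting the arrays of that time alone (adjusted p = 0.121).

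Some fibroblast genes were lower beside Serping1. Of the 8 fibroblast markers, 5 were called lower at 0 h, 6 at 6 h, 5 at 24 h, 4 at 48, 72 and 96 h and 2 at 168 h, where 12.3%, 33.2%, 24.9%, 18.1%, 26.3%, 20.8% and 1.41% of all genes were called lower. At 72 h 1 was called higher. At 2 h limma called none, and 0 had an unadjusted p below 0.05. The collagen-binding proteoglycans Dcn and Lum were called lower at every time except 2 h. The list mean ranged from 11.98 to 12.54 in naive and from 11.30 to 12.30 in sensitized mice. The mouse at 11.30 was sensitized replicate 1 at 48 h, also the lowest for Serping1. What these markers contribute to the Serping1 difference was not tested.

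C3ar1, the receptor for C3a, had the largest difference of the 7 genes at any time. At 24 h C3ar1 stood at 8.06, 8.15 and 8.88 in naive and at 9.80, 10.22 and 10.46 in sensitized mice. The groups did not overlap, and the difference was 1.85 ± 0.26, a 3.61-fold higher signal (adjusted p = 4.46e-09). At 6 h it stood at 8.13, 8.52 and 8.88 in naive and at 8.42, 9.66 and 10.28 in sensitized mice, 7 of which lay above every naive mouse. Sensitized replicate 3 was the exception, and the difference was 1.03 ± 0.24 (adjusted p = 0.000159), or 1.19 without it. At 48, 72 and 96 h the differences were 1.14 ± 0.25, 1.39 ± 0.24 and 1.05 ± 0.25, all called, and the groups did not overlap at 96 h. Without sensitized replicate 1 the difference was 1.28 at 48 h, and without naive replicate 3 it was 1.61 at 72 h.

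C3ar1 rose and fell more than once within the sensitized arm. It rose by 0.57 ± 0.24 from 2 to 6 h and by 0.65 ± 0.26 from 6 to 24 h, then fell by 0.77 ± 0.26 from 24 to 48 h and by 0.76 ± 0.24 from 72 to 96 h (adjusted p = 0.0414, 0.0476, 0.0230 and 0.0353). The step from 48 to 72 h, at 0.44 ± 0.24, was not called, and 3.99% of all genes were called in that step and 9.35% in the next. Ordered by mean, sensitized C3ar1 was highest at 24 h (10.18), then at 72 h (9.85), 6 h (9.53), 48 h (9.41), 96 h (9.09), 2 h (8.95), 168 h (8.93) and 0 h (8.87), and no neighbouring pair differed by more than the larger SD of its groups. The difference at 24 h was larger than at 0 h by 1.37 ± 0.36 (adjusted p = 0.0138). With array weights this change was also called at 6, 48 and 72 h (0.85, 0.75 and 1.11, adjusted p = 0.00233, 0.0405 and 0.000170).

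At the ends of the course the C3ar1 difference was smaller and not called. At 0 h it stood at 8.07, 8.36 and 9.03 in naive and at 8.40, 8.79 and 9.54 in sensitized mice, with a difference of 0.48 ± 0.24 (adjusted p = 0.128). Another probe set of the gene, with a mean signal of 8.83 against 8.85, was called at 0 h (0.81 ± 0.25, adjusted p = 0.0118), and so was the mean of its 3 probe sets (0.64, adjusted p = 0.0406). The probe set used was called at 0 h with the arrays of that time alone (adjusted p = 0.0438) and with array weights (0.46, adjusted p = 0.0227). For it the two-sided exact permutation test at 0 h gave an unadjusted p of 0.0159, and 0.0222 after Benjamini-Hochberg adjustment over the genes and times. At 2 h the difference was 0.60 ± 0.25 (adjusted p = 0.171). At 168 h naive mice stood at 7.84, 8.29 and 10.88 and sensitized mice at 8.30, 9.10 and 9.35. Naive replicate 4 was the highest mouse of both groups, and without it the difference rose from 0.37 to 0.70 and was called (adjusted p = 0.0410), and array weights gave the same size (adjusted p = 0.00244). The probe sets with means of 8.83 and 8.24 gave 2.41 ± 0.27 and 2.50 ± 0.27 at 24 h, and correlated with the one used at r = 0.967 and 0.961 over arrays.

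**Figure D4:**
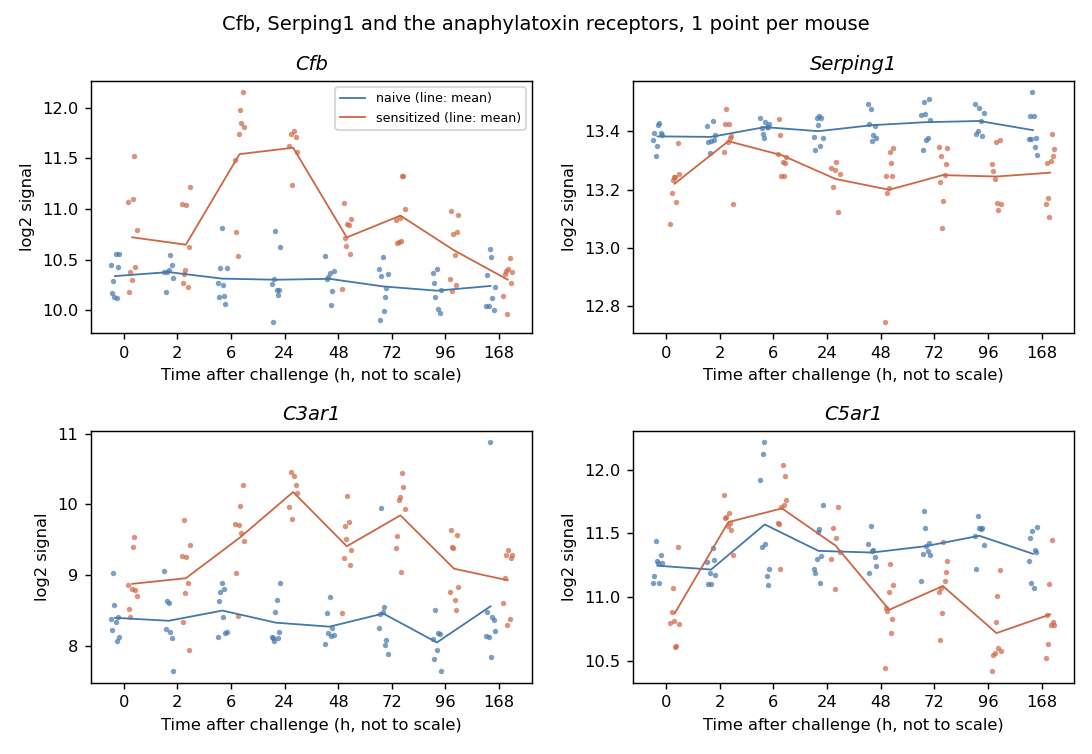
Log2 signal of Cfb, Serping1, C3ar1 and C5ar1 in each mouse (points) and group mean (lines) by time after challenge, which is not drawn to scale. Sensitized Cfb peaks at 6 and 24 h, Serping1 lies lower in sensitized mice except at 2 h, naive replicate 4 at 168 h is the highest C3ar1 value at 10.88, and sensitized C5ar1 is above naive at 2 h and below it at 0 h and from 48 h on.

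C5ar1, the receptor for C5a, was the only one of the 7 genes that was lower at 0 h and not lower at the next 3 times. At 0 h C5ar1 stood at 11.11, 11.27 and 11.44 in naive and at 10.61, 10.81 and 11.40 in sensitized mice, 7 of which lay below every naive mouse. At 2 h it stood at 11.10, 11.19 and 11.39 in naive and at 11.33, 11.60 and 11.80 in sensitized mice. Of the 8 sensitized mice, 7 now lay above every naive mouse. The difference was -0.37 ± 0.11 at 0 h (adjusted p = 0.0104) and 0.37 ± 0.12 at 2 h (adjusted p = 0.0538), and it changed by 0.75 ± 0.16 between these times (adjusted p = 0.00254, where 2.34% of all genes were called in this direction). Within the sensitized arm C5ar1 rose by 0.72 ± 0.11 from 0 to 2 h (adjusted p = 7.52e-07).

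The difference at 2 h missed the threshold narrowly. It was called with the mean of both probe sets (0.37, adjusted p = 0.0281), with the arrays of that time only (adjusted p = 0.00939), with array weights (0.38, adjusted p = 0.00512) and without naive replicate 5 (0.40, adjusted p = 0.0494). The two-sided exact permutation test gave an unadjusted p of 0.000622.

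At 6 and 24 h C5ar1 overlapped between the arms, with differences of 0.13 ± 0.11 and 0.04 ± 0.12. Naive mice at 6 h fell into separate ranges, with replicates 1, 3 and 4 at 11.92, 12.13 and 12.22 and the other 5 between 11.10 and 11.41. Sensitized mice at 6 h stood at 11.22, 11.72 and 12.04. Those 3 naive mice also had the highest neutrophil list means, 11.87, 11.87 and 12.09, against 9.31 to 10.23 in the other 5. With array weights the difference at 6 h was 0.38 and called (adjusted p = 0.000372). Compared with 0 h it was larger by 0.50 ± 0.16 at 6 h (adjusted p = 0.0154), a call lost with the dimmer probe set of the gene (0.27, adjusted p = 0.194). With array weights the change was also called at 24 h (0.47, adjusted p = 0.00362) and, in the other direction, at 96 h (-0.49, adjusted p = 0.00902).

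From 48 h on C5ar1 was lower in sensitized mice. It fell by 0.50 ± 0.12 from 24 to 48 h and by 0.37 ± 0.11 from 72 to 96 h in the sensitized arm (adjusted p = 0.00150 and 0.0289). At 96 h C5ar1 stood at 11.22, 11.54 and 11.63 in naive and at 10.42, 10.59 and 11.22 in sensitized mice. The groups did not overlap, and the difference was -0.76 ± 0.12 (adjusted p = 1.10e-07), with a signal 1.70-fold lower in sensitized mice. At 48, 72 and 168 h the differences were -0.45 ± 0.12, -0.31 ± 0.11 and -0.48 ± 0.11, each called. They were -0.38 at 48 h without sensitized replicate 1 and -0.27 at 72 h without naive replicate 3, both still called. At 168 h C5ar1 stood at 11.07, 11.36 and 11.55 in naive and 10.52, 10.79 and 11.45 in sensitized mice. In sensitized mice the order of means ran from 11.70 at 6 h, 11.59 at 2 h and 11.40 at 24 h to 10.72 at 96 h, and the gap from 24 h to the next, 11.09 at 72 h, was the only one above the larger SD of its neighbours.

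The probe sets of C5ar1 did not give the same calls. The second one had a mean signal of 6.61 against 11.25 and correlated with the one used at r = 0.820 over all arrays. It was called higher at 2 h (0.36 ± 0.11, adjusted p = 0.0412) and lower at 96 h (-0.27 ± 0.11, adjusted p = 0.0376), and not called at 0, 48, 72 and 168 h, where it gave -0.15, -0.16, -0.12 and -0.27. At 24 h it gave -0.02. The mean of both was not called at 72 h (-0.22, adjusted p = 0.0665).

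Some neutrophil markers moved beside C5ar1 at 2 and 96 h, and fewer did at the other times. Of the 6 measured, 3 were called higher at 2 h, among them the chemokine receptor Cxcr2 at 0.98, and 4 lower at 96 h, among them the calgranulins S100a8 at -0.60 and S100a9 at -0.48. Of all genes, 1.84% were called higher at 2 h and 20.8% lower at 96 h. C5ar1 was also called lower at 0, 48, 72 and 168 h. No neutrophil marker was called at 0, 48 and 72 h, and 1 was called lower at 168 h (1.41% of all genes). At 6 and 24 h, where C5ar1 was not called, 2 and 1 markers were called higher (24.6% and 22.8% of all genes). The neutrophil list mean ranged from 9.67 to 10.10 in naive and from 9.95 to 11.07 in sensitized mice at 2 h, and from 9.81 to 10.60 and from 9.29 to 10.47 at 96 h. The part of neutrophils in the C5ar1 differences was not tested.

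Macrophage markers moved beside the C1q chains and C3ar1. Of the 11 measured, 6 were called higher and 1 lower at 0 h, and 9 higher and 2 lower at 24 h, where 14.2% and 12.3% and then 22.8% and 24.9% of all genes were called. At 168 h limma called none of them, and 3 had an unadjusted p below 0.05. At 24 h the lysosomal protein Cd68 was higher in sensitized mice by 1.21, the lipid receptor Trem2 by 1.71 and Ms4a7 by 1.81. The efferocytosis receptor Mertk and the apolipoprotein Apoe were lower by 0.40 and 0.37. The list mean ranged from 10.34 to 10.82 in naive and from 11.21 to 11.60 in sensitized mice at 24 h. Naive replicate 4 at 168 h, the highest mouse for all 3 chains and C3ar1, had a macrophage list mean of 11.70 against 10.41 to 10.65 in the other 7 mice, and naive replicate 3 at 72 h had 11.36 against 10.46 to 10.70. Of the 7 alveolar macrophage markers, 2 were called higher and 1 lower at 24 h. The part of macrophage numbers in these results was not tested. Hepatocyte markers, at 6.79 to 7.85 as a list mean over all mice, had at most 1 of 6 called at any time.

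**Figure D5:**
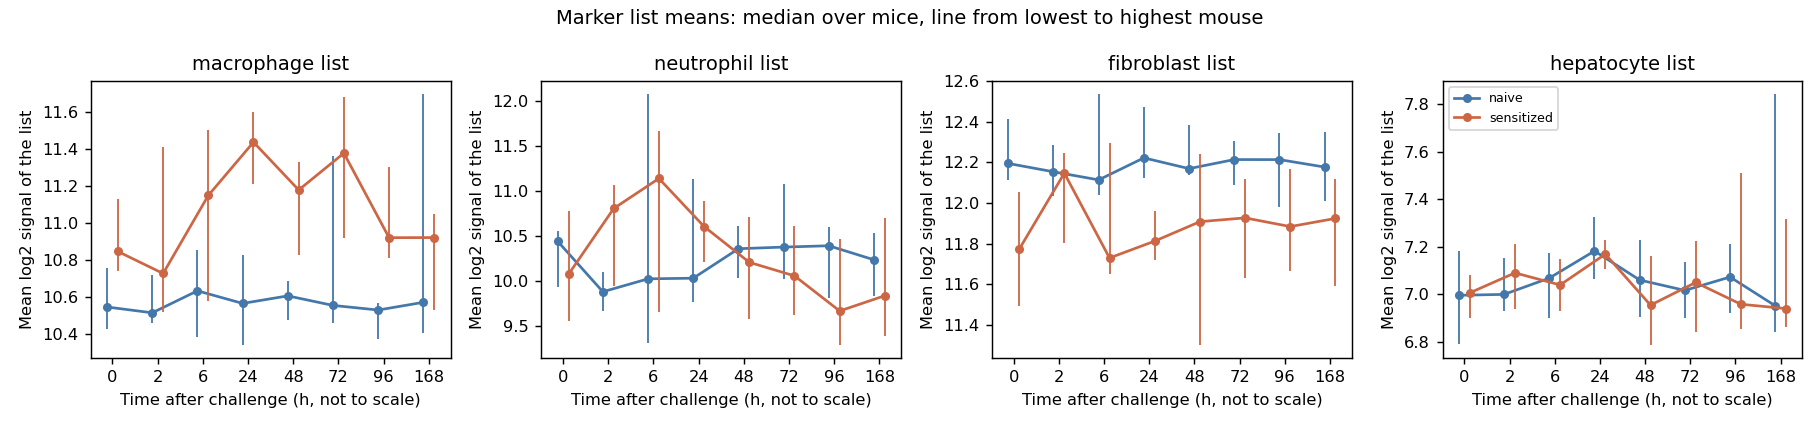
Mean log2 signal of the measured macrophage, neutrophil, fibroblast and hepatocyte markers by time, as the median over mice (points) with a line from the lowest to the highest mouse, for naive and sensitized mice. The macrophage ranges do not overlap at 24 h, at 10.34 to 10.82 and 11.21 to 11.60, the neutrophil list of naive mice reaches 12.09 at 6 h, and the hepatocyte list stays between 6.79 and 7.85.

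Mice of the same group that were high for one chain of C1q were high for the others. Over all mice, with group means removed, C1qa and C1qc correlated at r = 0.969 (Spearman's rho = 0.964), C1qb and C1qc at r = 0.915 (rho = 0.892) and C1qa and C1qb at r = 0.862 (rho = 0.854). C3ar1 correlated with C1qc at r = 0.813 (rho = 0.748) and Cfb with C1qa at r = 0.689 (rho = 0.708). Each of these had a permutation p of 1e-05, the smallest that 100000 resamples within groups can give, and 2.1e-05 after Benjamini-Hochberg adjustment over the 21 pairs, of which 15 passed. Leaving out the 2 mice farthest from the median gave r = 0.969, 0.891, 0.848, 0.762 and 0.702 for these pairs. Serping1 did not follow the chains over all mice, at r = 0.06 with C1qa (adjusted permutation p = 0.55), but the arms differed in value, with r = 0.504 among naive and -0.09 among sensitized mice. C5ar1 likewise correlated with C1qa at r = 0.454 among naive and -0.01 among sensitized mice. Neither difference between the arms was tested.

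Across the 16 group means, which share the platform and the arms' contrast, the most alike gene to C1qa among the 13053 was C1qc at r = 0.989, followed by Trem2 at 0.987 and the cation channel Trpv2 at 0.985. For C1qc they were C1qa, the condensin subunit Ncapg at 0.989 and Trem2 at 0.989, and for C1qb the IL-25 receptor subunit Il17rb at 0.977, the collagen Col6a1 at 0.972 and Sel1l3 at 0.968. C3ar1 was most like Cd68 at 0.986, the Fc receptor Fcgr3 at 0.980 and Tmem202 at 0.979. Cfb was most like the metalloproteinase inhibitor Timp1 at 0.982, the cytokine receptor Il21r at 0.977 and Msx3 at 0.977. Serping1 was most like Gabarapl1 at 0.965, Aebp1 at 0.959 and Dcn at 0.959. C5ar1 had no gene as close, with Gtpbp8 at 0.894, the integrin subunit Itgb1 at 0.887 and Eci2 at 0.883. Serping1 ran opposite to the chains in these means, at r = -0.884 with C1qa, where the correlation within groups was 0.06.

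Of 41 other complement genes, 22 were measured. The counts were 6 higher and 3 lower at 0 h, 9 and 4 at 6 h, 7 and 3 at 24 h, 8 and 3 at 48 h, 8 and 5 at 72 h, 10 and 3 at 96 h, and 2 and 0 at 168 h. From 0 to 168 h without 2 h, the shares called higher were 27.3%, 40.9%, 31.8%, 36.4%, 36.4%, 45.5% and 9.09%, where those of all genes were 14.2%, 24.6%, 22.8%, 17%, 22.2%, 21.2% and 3.4%. The shares called lower were 13.6%, 18.2%, 13.6%, 13.6%, 22.7%, 13.6% and 0%, where those of all genes were 12.3%, 33.2%, 24.9%, 18.1%, 26.3%, 20.8% and 1.41%. At 2 h limma called none, and 5 had an unadjusted p below 0.05. Among the regulators was Cfi, the protease that inactivates C3b and C4b. Cfi was higher in sensitized mice by 1.39 ± 0.20 at 6 h, 2.10 ± 0.22 at 24 h and 0.81 ± 0.21 at 96 h. C4bp, which binds C4b, was higher by 1.63 ± 0.17 at 6 h and 1.20 ± 0.19 at 24 h. At 24 h the means of Cfi were 5.95 in naive and 8.05 in sensitized mice, and those of C4bp were 5.41 and 6.61. These means lay below the medians of whole arrays. The membrane regulator Cd55 was higher in sensitized mice by 0.27 to 0.40 at all times from 0 to 96 h except 2 h. Vtn, a plasma inhibitor of the terminal complex, was lower by 0.71 ± 0.13 at 24 h. Itgax, the alpha subunit of complement receptor CR4 and a marker of dendritic cells and lung macrophages, was called higher in sensitized mice at every time except 2 h. The difference was 1.88 ± 0.19 at 24 h and 0.78 ± 0.17 at 168 h. Vsig4, a macrophage receptor for C3b, was called lower in sensitized mice at 6 h alone, by 1.40 ± 0.43. Its naive mean was 5.54 at 0 h and 6.37 at 6 h, and its sensitized mean was 4.91 and 4.97. These values lay below the medians of whole arrays. Hc, which encodes C5, was higher by 0.18 to 0.34 at every time except 2 h, and Masp1 of the lectin pathway was higher by 0.97 ± 0.16 at 24 h. At 168 h Itgax and Hc were the 2 genes called.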

How the data were processed

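Total RNA of whole lung was amplified and labelled by a 3′ in vitro transcription kit, per the labels' protocols, which state integrity numbers above 6. The authors deposited log2 values for 25697 probe sets. The submitters' processing notes name RMA as the method, its version and the probe set filter not being given in the sources used here. RMA gives arrays a like overall brightness and draws differences between dim values together. Arrays give no counting depth, and their number limits the precision. Of the probe sets, 22478 had 1 symbol, 259 had several, 2950 had none listed and 10 were controls. Only those with 1 symbol were named.

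Cell means of the 16 groups were fitted in limma 3.58.1 (under R 4.3.3, reading files through version 1.17.8 of data.table) over 13053 genes, with 107 residual degrees of freedom and Benjamini-Hochberg adjustment within each contrast. All groups share 1 spread per gene, so an SE understates the spread of groups that vary more. Replicate numbers follow sample order and pair nothing. Animal numbers differ, so replicates are separate mice. The exact and permutation tests and figures used matplotlib 3.10.9, scipy 1.17.1, pandas 2.3.3 and numpy 2.4.6 under Python 3.11.15. Relations were computed over 21 pairs of measured genes, not the 36 planned for 9. The limma step was tested on simulated data. Alternatives covered other probe sets, their mean, single-time fits, array weights, a low-value filter, left-out arrays and mice, a trended robust prior and array medians. The genes and lists were chosen with earlier results of these data known, and named genes are the 9, the listed complement and marker genes, and for each of the 9 the 3 genes most alike over group means.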

Additional observations from a re-analysis of the deposited data

Results flagged for a closer look

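Values of single mice stood far from the rest of their group in 8 of the 112 combinations of gene and group checked, where chance gives about 1 in 20. Of these, 6 came from the same pair of naive mice. Naive replicate 4 at 168 h stood at 13.51 for C1qb, 11.87 for C1qc and 10.88 for C3ar1, where the other 7 mice reached 12.76, 11.05 and 8.48. It was also the highest of its group for C1qa, Cfb and Serping1, and its macrophage list mean, 11.70, lay above those of the other mice, while its adipocyte list mean, 6.39, lay below theirs. Naive replicate 3 at 72 h stood at 13.5 for C1qb, 11.8 for C1qc and 9.95 for C3ar1, with a macrophage list mean of 11.36 and a neutrophil list mean of 11.08, both above the rest of its group. Serping1 was low in sensitized replicate 8 at 2 h, at 13.15, and in sensitized replicate 1 at 48 h, at 12.75. Both mice had the lowest fibroblast list mean of their group, 11.80 and 11.30.

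The difference between the arms changed over time for 6 of the 7 genes, by the moderated F test of limma over 7 contrasts with 0 h. The adjusted p was 2.19e-07 for C1qa, 1.14e-05 for C1qb, 2.41e-06 for C1qc, 2.75e-07 for Cfb, 0.00237 for C3ar1 and 3.29e-08 for C5ar1.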

How the results depend on the processing

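No paired analysis was possible because the replicate numbers follow sample order only. Differences whose call depended on a mouse, a probe set or the fit are given beside each result, and so are the 16 changes of the difference since 0 h called only with array weights. Mice were not left out in turn for these changes or at 24, 48, 72 and 96 h, apart from the 2 named beside their results, and changes within an arm were computed with 1 setting. The number of genes called moved most at 2 and 168 h. It was 1379 at 2 h and 1570 at 168 h with array weights, and 362 at 168 h with the arrays of that time only. Leaving out 1 mouse gave 2003 to 4033 genes at 0 h (lowest without sensitized replicate 6), 197 to 577 at 2 h (lowest without sensitized replicate 8) and 364 to 776 at 168 h (lowest without naive replicate 1). Of the 7 complement genes, 1 was called at 2 h with the mean of probe sets, with the arrays of that time only and with array weights, in place of 0. At 168 h 1 was called with the arrays of that time only and 6 with array weights, in place of 3. Leaving out 1 mouse gave 0 to 1 at 2 h and 2 to 5 at 168 h.

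Signs turned only for values that were not called. With array weights these were Serping1 at 2 h (0.0036) and changes of the difference since 0 h for C3ar1 at 2 h (-0.20), for C1qa, C1qb and C1qc at 6 h (0.13, 0.15 and 0.25) and for C1qa, C1qc, Cfb and C3ar1 at 168 h (0.036, 0.072, 0.024 and 0.24). Without the arrays with high squamous or muscle values such changes were 0.0084 for Serping1 at 24 h and -0.0097 for Cfb at 48 h, and with array medians subtracted -0.0073 for Cfb at 96 h. Other probe sets gave -0.017 for C5ar1 at 24 h, and changes since 0 h of -0.12 for C3ar1 at 2 h and -0.061 for C1qb at 168 h. Serping1 at 2 h ran from -0.030 to 0.016 over left-out mice. The cause was not tested. In all, 1407 comparisons with an alternative gave the same reading, 37 lost a call, 34 gained one, 16 turned sign and 20 counts moved. For a difference, the same reading meant the same direction and side of the threshold. For a count of genes it meant a number of like size.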
